A study of Rattus norvegicus with 12 samples.

Results

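Collagen gene circles are the extrachromosomal circular DNAs (eccDNA) that the deposited annotation places in an exon or intron of a gene whose symbol is of the form Col, number, a, number. There were 423 of them among 83890 eccDNA in exons or introns of any gene (genic circles) and 228353 eccDNA in all. They were found in rat skin by Circle-seq, a method that removes linear DNA with exonuclease and sequences the circles that remain. All libraries came from back skin of wild-type SD rats, an outbred laboratory stock. The control group was untreated, the 5 Gy x2 group was sampled 7 days after the last of 2 weekly electron beam fractions of 5 Gy, and the 5 Gy x4 group 7 days after the last of 4 such fractions, with 4 libraries in each group. When control skin was taken is not given in the labels, and total dose and elapsed time rise together across the irradiated groups and cannot be told apart. Nothing in the labels ties each library to an animal of its own, and the p-values below therefore describe spread among libraries that may in part be technical.

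Collagens are the main structural proteins of the dermis and of the basement membrane below the epidermis. Each is a trimer of chains wound into a triple helix, and chains of different families build fibrils, sheet-like networks, microfibrils or membrane-anchored proteins. Fibroblasts make most of the fibrillar collagen of skin, and collagen deposition is well known in skin after irradiation. A circle in a collagen gene is a piece of its DNA and does not measure expression of the gene.

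The 423 listed circles gave 448 detections over the 12 libraries, where a circle was detected in a library if at least 1 read supported it there. Of the 423, 357 were annotated to introns and 66 to exons, so 15.6% were exonic against 12.8% of the other 83467 genic circles. The rule for the exon label was not given in the sources used here. Whether a circle called exonic lies wholly in an exon or only overlaps one is therefore unknown. Their median length was 360 bp with quartiles of 324 and 382.5 bp and a range of 49 to 4091 bp, and 66.2% lay at 330 to under 420 bp against 66.4% of other genic circles. A total of 405 were found in 1 library, and 18 (4.26%) in more than 1, against 4.15% of other genic circles. They carried 3653 supporting reads in all, with a median of 4 per circle and a highest value of 132, and 91 of them rested on 1 read. The annotation labels, which it does not define, were hconf for 109, conf for 53 and lconf for 261. The sequenced libraries held 34499 to 397674 reads supporting eccDNA, and their total depth is unknown. Reads carried no molecular identifiers, so the intervals given here cover counting error only.

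Every 5 Gy x4 library held more collagen circles than any control library, and the same held for genic circles of all kinds. The 4 control libraries held 10, 27, 13 and 6 collagen circles. The 5 Gy x2 libraries held 40, 42, 44 and 10, and the 5 Gy x4 libraries 45, 97, 70 and 44. The lowest 5 Gy x4 library lay well above the highest control library, whereas 5 Gy x2 replicate 4 fell inside the control range. The mean was 14 ± 9.13 in control (SD, n = 4), 34 ± 16.1 after 5 Gy x2 and 64 ± 25.1 after 5 Gy x4. That was 2.43-fold the control mean after 5 Gy x2 (two-sided exact permutation p = 0.114) and 4.57-fold after 5 Gy x4 (exact p = 0.0286, the smallest that 4 libraries against 4 allow). The 5 Gy x4 mean was 1.88-fold that of 5 Gy x2 (exact p = 0.0571). After Benjamini-Hochberg adjustment over 12 exact tests, these p-values were 0.196, 0.0686 and 0.114, and none passed 0.05. All genic circles were 2.84-fold and 4.72-fold the control number in the same groups. Per 10000 supporting reads, the 5 Gy x4 collagen number was 1.65-fold the control value (exact p = 0.171) and the 5 Gy x2 number 1.37-fold (exact p = 0.571). Among circles labelled hconf the folds were 2.62 (exact p = 0.0571) and 1.31 (exact p = 0.6).

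As a share of each library's genic circles, collagen showed no difference beyond the spread. The share was 0.552%, 0.769%, 0.343% and 0.444% in the control libraries. It was 0.604%, 0.392%, 0.438% and 0.425% after 5 Gy x2, and 0.546%, 0.587%, 0.405% and 0.602% after 5 Gy x4. The 3 groups overlapped throughout, and control held both the highest and the lowest library. The means were 0.527% ± 0.182, 0.465% ± 0.0948 and 0.535% ± 0.0899 (SD, n = 4 each). The difference from control was -0.0623 percentage points after 5 Gy x2 (exact permutation p = 0.629) and 0.00794 after 5 Gy x4 (exact p = 0.971), and 5 Gy x4 lay 0.0702 above 5 Gy x2 (exact p = 0.429). The direction of both differences from control turned under alternatives given in the closing section.

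**Figure D1:**
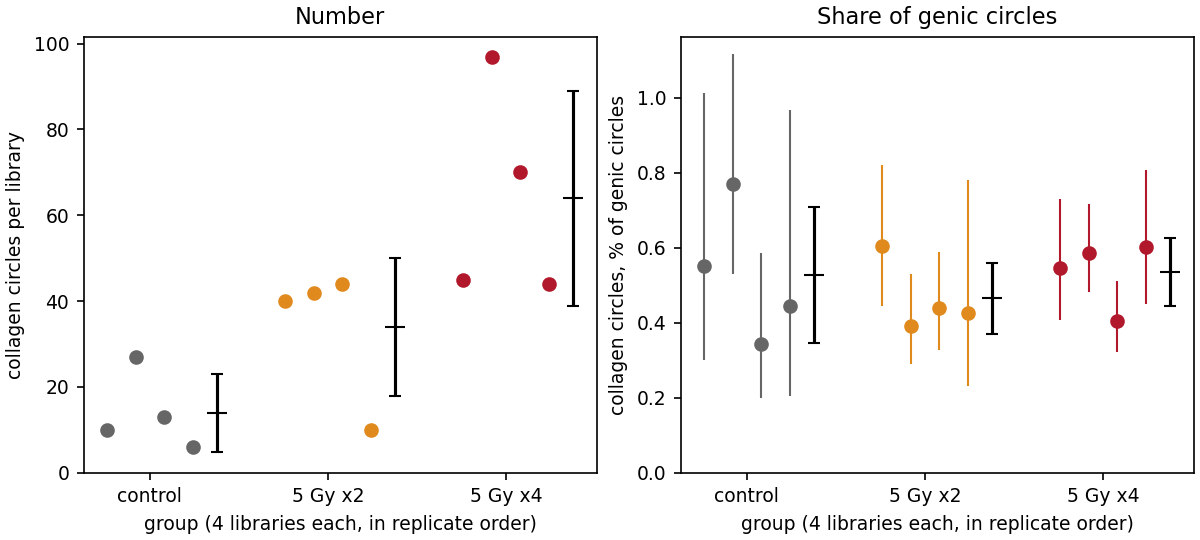
Collagen circles per library (left) and their share of the library's genic circles in percent with 95% Wilson intervals (right), for 4 libraries per group in replicate order; the black bar beside each group is the mean ± SD. The 5 Gy x4 libraries sit between 44 and 97 circles, all above the control libraries, while the shares of all 3 groups overlap.

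Collagen circles were spread over 41 genes, of which 25 had a circle in a control library, 33 after 5 Gy x2 and 36 after 5 Gy x4. The 6 genes with most circles held 161 of the 448 detections (35.9%), and 8 genes had 1 or 2 detections. The median was 9 detections per collagen gene with a circle, against 3 over all 14890 genes with one. At least 20 detections were reached by 6 of 41 collagen genes (14.6%) and by 934 genes in all (6.27%). Gene length was not used here, so its part in these numbers was not tested. No listed circle carried the symbols Col1a2, Col6a3, Col21a1 or Col23a1. Positions below are in the rat genome build rn6.

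**Figure D2:**
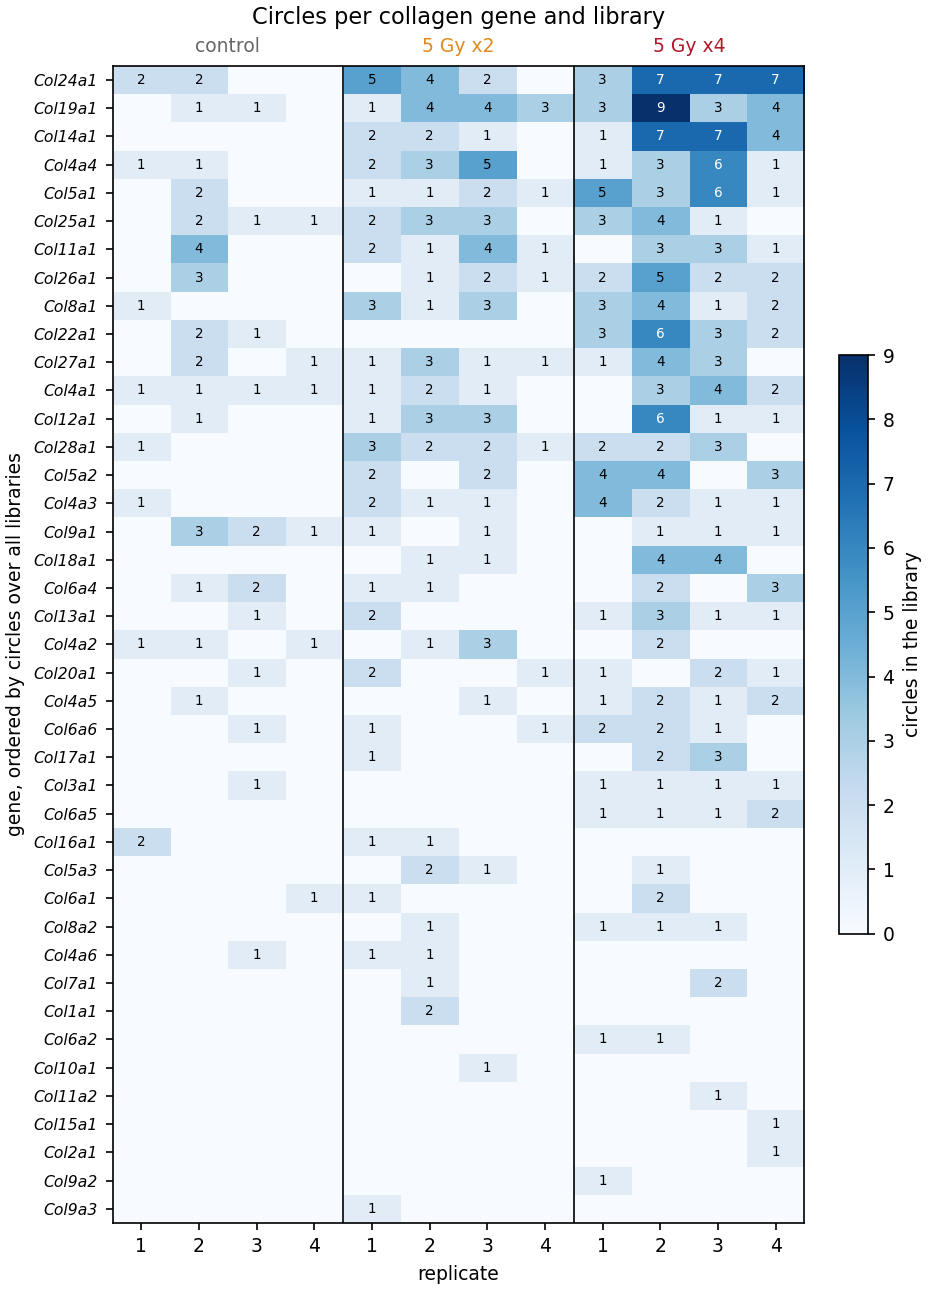
Number of circles of each of the 41 collagen genes (rows, ordered by their total) in each of the 12 libraries (columns, by group and replicate); colour and digits both give the number, and empty cells are 0. The top-ranked genes Col24a1, Col19a1 and Col14a1 reach 7 to 9 circles in 5 Gy x4 libraries, and most genes have 0 to 3 circles per library.

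The fibrillar genes, whose chains form the banded fibrils of connective tissue, held 119 of the 423 circles (28.1%). Their detections ran from 1 to 10 per control library, 3 to 13 after 5 Gy x2 and 14 to 23 after 5 Gy x4, with the last group above control in every library. Per 10000 genic circles the class stood at 12.4 ± 11.3, 13.4 ± 2.19 and 15.6 ± 3.13 (SD, n = 4 each), with overlapping groups. Col24a1, a minor fibrillar chain, led the family with 39 detections between chr2:251211255 and chr2:251432504. It had 2, 2, 0 and 0 circles in control, 5, 4, 2 and 0 after 5 Gy x2, and 3, 7, 7 and 7 after 5 Gy x4. Its 5 Gy x4 libraries all lay above control, while 5 Gy x2 overlapped both other groups. Its 38 circles were a median of 4206 bp apart, so they were scattered over the gene.

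Col5a1 and Col5a2 encode chains of type V collagen, which sets the diameter of type I fibrils. Col5a1 (chr3:6432076-6566300) had 0, 2, 0 and 0 circles in control, 1, 1, 2 and 1 after 5 Gy x2, and 5, 3, 6 and 1 after 5 Gy x4. Col5a2 (chr9:52094351-52233900) had none in control, 2, 0, 2 and 0 after 5 Gy x2, and 4, 4, 0 and 3 after 5 Gy x4. Both overlapped between control and 5 Gy x4. The main dermal chains were rare: Col1a1, which encodes the more abundant chain of type I collagen, had 2 circles, both in 5 Gy x2 replicate 2 and both exonic, within 2.311 kb of chromosome 10. Col3a1, the chain of type III collagen, had 5, of which 1 was in control replicate 3, none after 5 Gy x2 and 1 in each 5 Gy x4 library. Col11a1, a chain of cartilage fibrils, had 19 detections, 4 of them in control replicate 2.

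The basement membrane genes Col4a1 to Col4a6, which form the sheet-like type IV network, held 67 circles. The class had 2 to 4 detections per control library, 0 to 11 after 5 Gy x2 and 6 to 12 after 5 Gy x4. By number 5 Gy x4 lay above control, but per 10000 genic circles the means were 13.4 ± 7.00 in control, 6.87 ± 4.80 after 5 Gy x2 and 7.42 ± 0.549 after 5 Gy x4, and the groups overlapped. Col4a4 led with 23 detections (chr9:88236093-88354653): 1, 1, 0 and 0 in control, 2, 3, 5 and 0 after 5 Gy x2, and 1, 3, 6 and 1 after 5 Gy x4. Its neighbour Col4a3, which pairs with it in the kidney network, had 13. Col4a1, a chain of nearly all basement membranes, had 17 detections, with 1 in each control library, 1, 2, 1 and 0 after 5 Gy x2, and 0, 3, 4 and 2 after 5 Gy x4. Its partner Col4a2 had 9: 1, 1, 0 and 1 in control, 0, 1, 3 and 0 after 5 Gy x2, and 0, 2, 0 and 0 after 5 Gy x4. The X-linked pair Col4a5 and Col4a6 had 8 and 3. Of the 8 Col4a5 circles 6 came from 5 Gy x4, a group that held 256 of all 448 collagen detections.

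Genes of beaded filaments and related chains, which include the microfibrils of type VI collagen, held 63 circles, from 1 to 4 per control library, 3 to 6 after 5 Gy x2 and 7 to 15 after 5 Gy x4. Per 10000 genic circles the class was level, at 8.06 ± 2.45, 7.38 ± 4.33 and 8.10 ± 2.71 in the same order. Col26a1 and Col28a1 led this class with 18 and 16. Col26a1 had 0, 3, 0 and 0 circles in control, 0, 1, 2 and 1 after 5 Gy x2, and 2, 5, 2 and 2 after 5 Gy x4. Of the classic type VI chains, Col6a1 had 4 and Col6a2 had 2, and of the later-found chains Col6a4, Col6a5 and Col6a6 had 10, 5 and 8. All 5 Col6a5 circles came from 5 Gy x4, with at least 1 in each library, where that group held 256 of all 448 collagen detections. Short-chain genes, which form hexagonal networks, held 20 circles, 15 of them in Col8a1 (1, 0, 0 and 0 in control, 3, 1, 3 and 0 after 5 Gy x2, and 3, 4, 1 and 2 after 5 Gy x4 by detections). Per 10000 genic circles this class stood at 1.38 ± 2.76, 2.59 ± 2.08 and 2.94 ± 1.51, with overlap.

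The FACIT genes, whose products sit on the surface of fibrils, held 108 circles. The class had 1 to 7 detections per control library, 4 to 10 after 5 Gy x2 and 9 to 29 after 5 Gy x4, and per 10000 genic circles 12.9 ± 5.27, 12.2 ± 3.81 and 14.0 ± 4.24 (SD, n = 4 each). Col14a1, which encodes a fibril-associated collagen of dermis and tendon, had 24 detections between chr7:95074122 and chr7:95267667. It had 0 in all 4 control libraries, 2, 2, 1 and 0 after 5 Gy x2, and 1, 7, 7 and 4 after 5 Gy x4. Pooled over the libraries of the group, Col14a1 stood at 3.85 per 10000 genic circles after 5 Gy x4. Against the 2.87 that 3 circles over the 4 control libraries would give, the lower bound was 1.34-fold. This bound pools circles, leaves out the spread between libraries, and need not hold for each library: 5 Gy x4 replicate 1 had 1 circle.

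Col19a1, a FACIT gene of basement membrane zones, had 33 detections (chr9:30516446-30841490). It had 0, 1, 1 and 0 in control, 1, 4, 4 and 3 after 5 Gy x2, and 3, 9, 3 and 4 after 5 Gy x4, so that 5 Gy x4 lay above control by number. Col22a1, known from muscle-tendon junctions, had 0, 2, 1 and 0 in control, none in the 4 libraries of 5 Gy x2, and 3, 6, 3 and 2 after 5 Gy x4. Col12a1, a relative of Col14a1, had 16 detections, 6 of them in 5 Gy x4 replicate 2. Col9a1, a cartilage chain, had the most control detections of any collagen gene: 0, 3, 2 and 1 in control against 1, 0, 1 and 0 after 5 Gy x2 and 0, 1, 1 and 1 after 5 Gy x4. Of these 6 control detections, 3 were of 1 recurrent circle described below.

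The transmembrane genes held 33 circles, with 0 to 2 detections per control library, 0 to 5 after 5 Gy x2 and 1 to 9 after 5 Gy x4. Per 10000 genic circles the means ran the other way, from 4.60 ± 3.20 in control to 3.33 ± 3.12 and 3.64 ± 1.87 in the irradiated groups, with overlap. Col25a1, a collagen of neurons, had 0, 2, 1 and 1 in control, 2, 3, 3 and 0 after 5 Gy x2, and 3, 4, 1 and 0 after 5 Gy x4. Col17a1, a hemidesmosome protein of basal keratinocytes, had 6 circles, 1 in 5 Gy x2 replicate 1 and 2 and 3 in 5 Gy x4 replicates 2 and 3, and 4 of the 6 were exonic. The annotation names a second gene for 1 of these 4. Col7a1, which forms the anchoring fibrils below the epidermis, had 3 circles, 1 after 5 Gy x2 and 2 in 5 Gy x4 replicate 3, and all 3 were exonic. For 1 of the 3 the annotation also names Ucn2, so its exon may be of either gene. The multiplexin genes had 0 in control, 2 after 5 Gy x2 and 9 after 5 Gy x4 by detections, with 10 circles of which 9 were in Col18a1, the source of endostatin. Per 10000 genic circles that was 0.482 ± 0.558 after 5 Gy x2 and 1.53 ± 1.12 after 5 Gy x4. Both lie below the 2.87 that 3 circles over the 4 control libraries would give, so the 0 in control does not show a rise.

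Only the 6 collagen genes with at least 20 detections entered the test across genes, edgeR's quasi-likelihood test on circles per gene in 1 fit of 934 genes. None passed an adjusted p of 0.05 (Benjamini-Hochberg) in any of the 3 contrasts. Over all 934 genes 0% passed in 5 Gy x2 against control, 0.642% in 5 Gy x4 against control and 0% in 5 Gy x4 against 5 Gy x2. At an unadjusted p under 0.05 the counts of collagen genes were 0, 1 and 0, with the same counts from DESeq2. The 1 was Col14a1 in 5 Gy x4 against control, with an edgeR p of 0.00203 and an adjusted p of 0.0892. Without its 5 Gy x4 detections this gene would not have reached 20 and entered the test. Its fitted fold is left out because all control values were 0. The log2 fold changes of the 6 in 5 Gy x4 against control had a median of 1.13 against 0.82 over all genes tested, and with library size alone 0.49 against 0.18. With Col14a1 set at its lower bound, the median with library size alone was 0.38. Without Col14a1, the 5 fitted values ran from -0.50 ± 0.91 (SE) for Col25a1 to 1.59 ± 0.93 for Col19a1, with Col5a1 at 1.26 ± 0.97, Col24a1 at 1.00 ± 0.75 and Col4a4 at 0.84 ± 1.02. In a simulation with the 5 Gy x4 and control library sizes, 46% of the genes changed 4-fold among all 934 were recovered. Its spread between libraries was set in advance and not estimated from these data. The value therefore does not give the rate of recovery for the 6 collagen genes.

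By number of circles, 3 of the 6 collagen genes (Col24a1, Col19a1 and Col14a1) lay higher in every 5 Gy x4 library than in every control library, against 31.2% of all 934 genes. None of the 6 lay higher throughout after 5 Gy x2 than in control (5.35% of all genes) or after 5 Gy x4 than after 5 Gy x2 (2.68%). The filter bears on these counts: without the 5 Gy x4 detections the 6 genes had 5 to 15, and 0 of them would have reached 20. They entered the test only with the detections of that group. None of the count, the median and the p of Col14a1 above therefore supports a difference.

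Exonic collagen circles were nearly absent from control libraries and present in every irradiated library. Exonic collagen circles numbered 0, 1, 0 and 0 in the control libraries, 7, 4, 5 and 1 after 5 Gy x2, and 10, 15, 19 and 5 after 5 Gy x4. The shares were 0%, 3.70%, 0% and 0% in control. For the counts of 0 in replicates 1, 3 and 4, the 95% Wilson intervals reach 27.8%, 22.8% and 39.0%. The shares were 17.5%, 9.52%, 11.4% and 10% after 5 Gy x2 and 22.2%, 15.5%, 27.1% and 11.4% after 5 Gy x4. Every irradiated library lay above every control library, and the irradiated groups overlapped. Over the 4 control libraries together, 1 of 56 collagen detections was exonic (1.79%, 95% Wilson interval 0.316 to 9.45%), against 17 of 136 after 5 Gy x2 (12.5%, 7.95 to 19.1%) and 49 of 256 after 5 Gy x4 (19.1%, 14.8 to 24.4%). The mean share was 0.926% ± 1.85 in control, 12.1% ± 3.69 after 5 Gy x2 and 19.0% ± 7.01 after 5 Gy x4 (SD, n = 4 each). The differences from control were 11.2 and 18.1 percentage points (exact permutation p = 0.0286 each, adjusted 0.0686), and 5 Gy x4 lay 6.95 points above 5 Gy x2 (exact p = 0.2). Neither difference passed 0.05 after adjustment. The pooled intervals count a circle once for each library that held it and take detections as independent. Among circles labelled hconf the differences were 12.6 points after 5 Gy x2 (exact p = 0.143) and 11.6 after 5 Gy x4 (exact p = 0.0286).

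The exonic share of other genic circles moved less. Other genic circles were exonic in 9.21% ± 1.94 of cases in control, 12.4% ± 0.960 after 5 Gy x2 and 13.0% ± 0.558 after 5 Gy x4. Within each library the collagen share minus the other share was -8.28 points in control, -0.302 after 5 Gy x2 and 6.04 after 5 Gy x4 on average. In a test added after the data were seen, this within-library difference was 7.98 points higher after 5 Gy x2 than in control and 14.3 points higher after 5 Gy x4 (exact permutation p = 0.0286 each, adjusted 0.0857 over 12 tests). The groups did not overlap in either comparison with control. Between 5 Gy x4 and 5 Gy x2 it differed by 6.34 points (exact p = 0.171). The control value rests on 56 detections, and its interval reaches 9.45%, against 9.72% of other genic circles pooled in the same way. Some of these detections were of the same circle, as with the Col9a1 and Col4a2 entries found in 3 control libraries each. The interval takes them as independent and is therefore too narrow to set the control value apart from 9.72%.

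Circle length also differed between the groups. Among collagen circles of 330 to under 420 bp, 1 of 13 was exonic in control. After 5 Gy x2 it was 10 of 93 (10.75%), and after 5 Gy x4 39 of 180 (21.7%). In other genic circles of that length the exonic share was 11.98% in control, 13.19% after 5 Gy x2 and 13.87% after 5 Gy x4. The collagen share lay below that of other genic circles in control and after 5 Gy x2, and above it after 5 Gy x4. Among collagen circles of other lengths, the counts were 0 of 43 in control, 7 of 43 after 5 Gy x2 and 10 of 76 after 5 Gy x4. The control value in the first set, 7.69% (95% Wilson interval 1.37 to 33.3%), has an interval that covers the values of both irradiated groups, so no difference could be seen at that depth within this length class. The part of length in the exonic difference was not tested further.

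Exonic circles came from 31 of the 41 genes, with at most 5 in 1 gene (Col12a1). By class, the exonic share of circles was 17.6% in fibrillar genes, 19.4% in the type IV genes, 13.0% in FACIT genes and 27.3% in transmembrane genes. It was 4.76% in the beaded filament class, where 3 of 63 circles were exonic. Exonic circles made up most of those in Col7a1 with 3 of 3, Col1a1 with 2 of 2 and Col17a1 with 4 of 6. The same held for Col5a3 with 2 of 3, Col4a2 with 4 of 7, and Col11a2 and Col9a2 with 1 of 1 each. For the Col11a2 circle the annotation also names Rxrb. In Col24a1, Col19a1 and Col14a1, by contrast, 2 of 38, 1 of 33 and 2 of 22 were exonic. The genes just named were picked out after their values were seen.

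**Figure D3:**
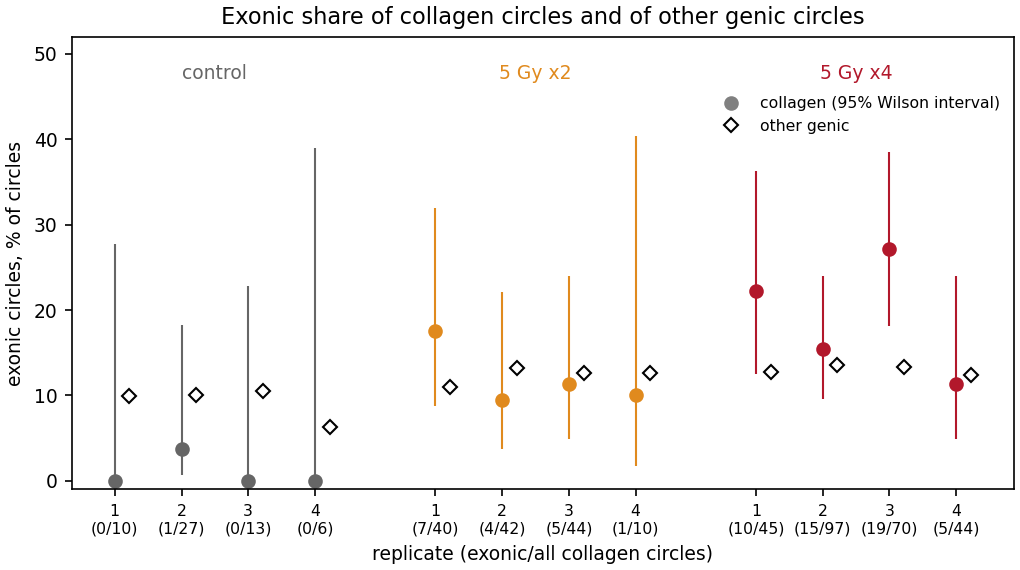
Percent of collagen circles annotated to exons in each library (filled circles, with 95% Wilson intervals; the counts stand below the axis) and the same percent for other genic circles (open diamonds). The 4 control libraries lie below their diamonds, from 0 to 3.70%, and 5 Gy x4 replicates 1 and 3 lie farthest above theirs, at 22.2% and 27.1%.

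Most collagen circles of irradiated skin lay in a narrow length class, as all eccDNA of these libraries were already known to do, so this is no independent result. Circles of 330 to under 420 bp numbered 3, 7, 3 and 0 in control, 24, 27, 36 and 6 after 5 Gy x2, and 34, 80, 40 and 26 after 5 Gy x4. Their share was 19.8% ± 13.5 in control, 66.5% ± 10.4 after 5 Gy x2 and 68.6% ± 12.4 after 5 Gy x4 (SD, n = 4 each), and the irradiated libraries all lay above control. The differences from control were 46.8 and 48.8 points (exact permutation p = 0.0286 each, adjusted 0.0686), and the irradiated groups differed by 2.04 points (exact p = 0.971). Length here is that of the listed entry, which may merge calls of differing length. With the length of collagen circles as called in each library, the differences from control were 44.9 and 46.8 points. Other genic circles had means of 31.5%, 65.8% and 67.4%. The collagen share minus the other share was -11.8 points in control, 0.685 after 5 Gy x2 and 1.16 after 5 Gy x4, and these differences were within the spread (exact p = 0.114, 0.143 and 0.971 for 5 Gy x2 and 5 Gy x4 against control and for 5 Gy x4 against 5 Gy x2).

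**Figure D4:**
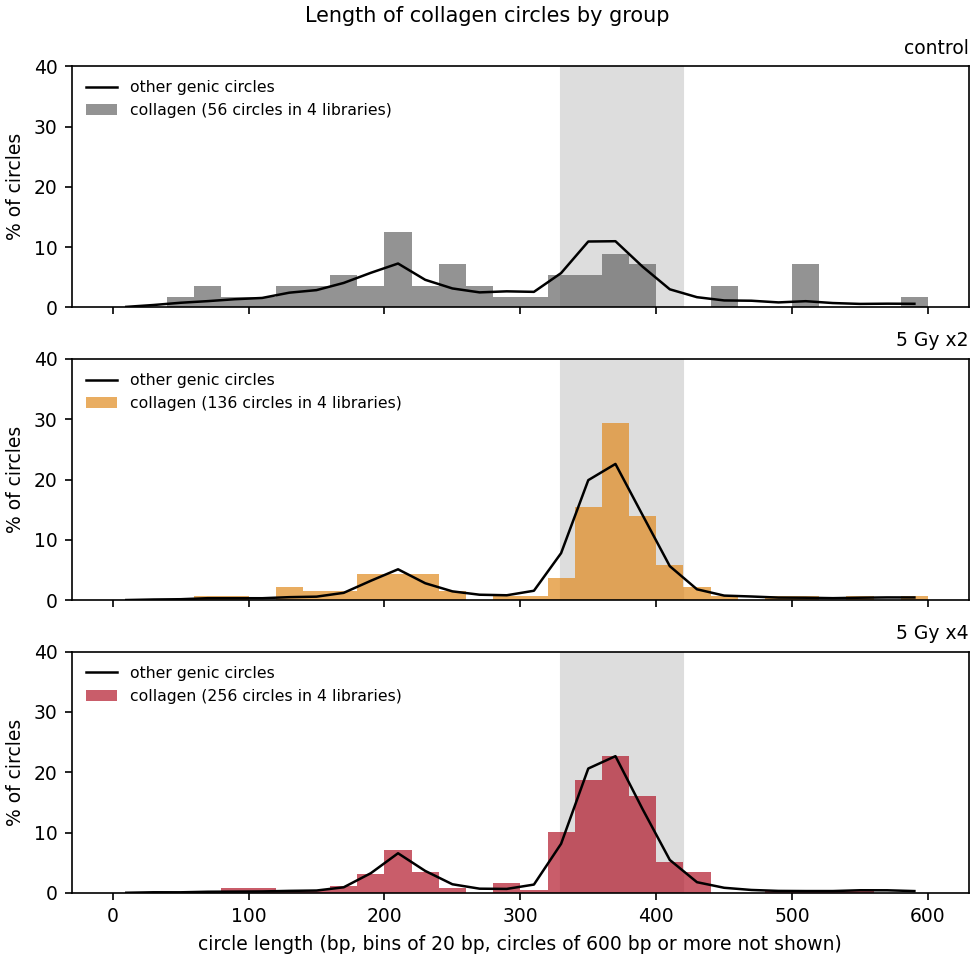
Length of collagen circles in bins of 20 bp as percent of all collagen circles of the group (bars: 56, 136 and 256 circles) and of other genic circles (line), up to 600 bp; the shaded band is 330 to under 420 bp. In both irradiated groups bars and line peak inside the band, whereas the 56 control circles show no single peak there; 3 of them are of 600 bp or more.

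Within libraries, collagen circles were set against other genic circles in 6 measures, and no mean difference over all 12 libraries passed its test. These means average groups that differed: the exonic difference ran from negative in control to positive after 5 Gy x4, as above, and the difference in median length was -75.5, -39, -24 and -85 bp in the control libraries against -10.5 to 8 bp in irradiated libraries. Over the 12 libraries the collagen value minus the other value was on average -0.850 points for the exonic share, -3.31 points for the share of 330 to under 420 bp, 3.03 points for the share under 150 bp and 3.17 points for the share labelled hconf. The median length was 18.5 bp shorter, being lower in 8 of 12 libraries (exact sign-flip permutation p = 0.0688), and supporting reads per circle were lower in 10 of 12 (exact p = 0.0737). The adjusted p-values of the 6 exact permutation tests ran from 0.221 to 0.702. Leaving out control replicate 4, with 6 collagen circles, changed 1 of these calls: reads per circle then differed by -2.52 (exact permutation p = 0.00195, adjusted 0.0117), against -1.80 with all libraries. Without it the hconf difference was 0.270 points and the difference in the share under 150 bp 1.67 points.

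Few collagen circles recurred between libraries, and no pair of libraries shared more than 3. A circle here is an entry of the list common to all libraries, in which calls with differing ends may be merged. Of the 18 entries in more than 1 library, 13 were in 2 libraries, 4 in 3 and 1 in 5. The share of a library's collagen circles whose entry was also found in another library was 33.9% ± 21.97 in control, 7.21% ± 6.38 after 5 Gy x2 and 5.79% ± 3.38 after 5 Gy x4 (SD, n = 4 each). Pooled, this was 16 of 56, 12 of 136 and 15 of 256 detections. The irradiated groups differed from control by -26.7 and -28.1 points, without overlap (exact permutation p = 0.0286 each, adjusted 0.0857). The measure was added after the data were seen, and libraries that share an entry are not independent in it. Without control replicate 4, which held 6 collagen circles, the differences were -15.8 (exact p = 0.0571) and -17.2 points (exact permutation p = 0.0286). Other genic circles showed 29.8%, 11.5% and 7.61%, and the collagen minus other difference did not differ between groups beyond the spread (exact p = 0.4, 0.514 and 0.743).

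The most widespread collagen circle lay in an intron of Col9a1 at chr9:30428284-30428789. It was called in control replicates 2, 3 and 4 with 32, 13 and 36 reads, in 5 Gy x2 replicate 3 with 29 and in 5 Gy x4 replicate 3 with 1. Its called ends differed in every library, with lengths of 319, 461, 445, 423 and 321 bp. An intronic Col4a2 circle of 173 bp at chr16:83432522-83432694 was called with identical ends in control replicates 1, 2 and 4, with 3, 24 and 70 reads, and in no irradiated library. An intronic Col25a1 circle of 74 bp at chr2:235692942-235693015 also had identical ends in control replicates 3 and 4 and 5 Gy x2 replicate 1, with 4, 12 and 16 reads. A Col4a1 intron at chr16:83625925-83626383 was called in control replicates 2 and 3 and 5 Gy x2 replicate 1 with 15, 24 and 32 reads. The Col14a1 entry at chr7:95199920-95200340, in 5 Gy x2 replicate 1 and 5 Gy x4 replicates 3 and 4, was the only one in 3 or more libraries with no control library.

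Of the 18 recurrent circles, 9 included a control library and 9 did not. Identical ends in all their libraries were seen in 4, all of 74 to 252 bp and all with a control library. These counts are descriptions of 18 circles, with no test.

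**Figure D5:**
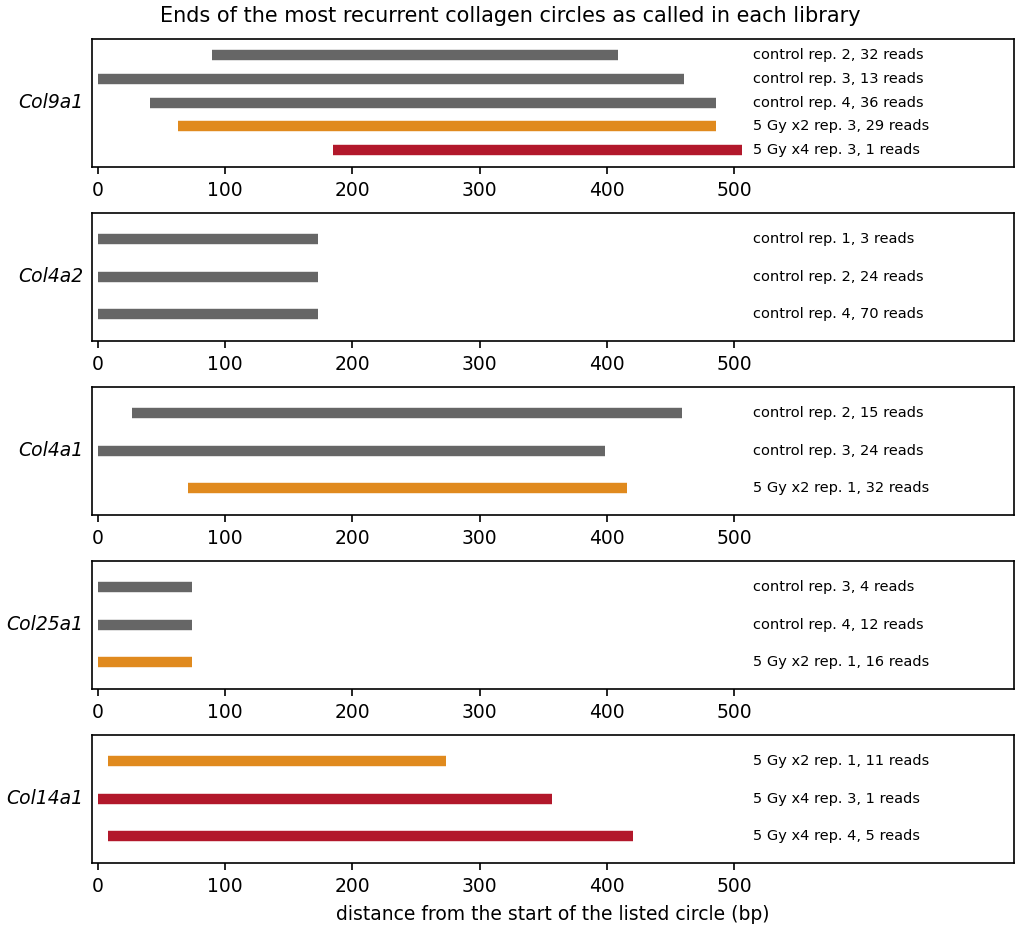
Extent of the 5 collagen circles found in 3 or more libraries, as called in each library (1 bar per library, coloured by group), in bp from the start of the listed circle, with supporting reads at the right. Ends coincide in all libraries for Col4a2 and Col25a1 and differ for Col9a1, Col4a1 and Col14a1.

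The longest collagen circles were rare and thinly supported. They were 4091 bp in Col19a1, 3043 bp in Col18a1, 1621 bp in Col12a1, 1195 bp in Col26a1 and 1121 bp in Col28a1, and 4 of these 5 rested on 1 read. The Col12a1 circle was annotated to an exon and the others to introns. The best supported was an intronic Col8a1 circle at chr11:44935873-44936161 with 132 reads, 116 of them in 5 Gy x2 replicate 1 and 16 in 5 Gy x4 replicate 4. It was followed by an exonic Col13a1 circle of 331 bp (chr20:31501863-31502193) with 114 reads, all in 5 Gy x4 replicate 4, and by the Col9a1 and Col4a2 circles above with 111 and 97. An intronic Col16a1 circle of 252 bp had 89 reads, all in 5 Gy x2 replicate 1. In Col8a1, Col13a1 and Col16a1 nearly all of this support came from 1 library.

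A list of 65 other genes of collagen biology covered enzymes that fold, process, cross-link or degrade collagen, its receptors, collagen-binding matrix proteins and TGF-beta signalling, and had a lower median number of circles per gene than the collagen genes. Of the 65, 52 had a circle, with a median of 4 detections and 312 detections in all. These were 47 in control, 86 after 5 Gy x2 and 179 after 5 Gy x4. Genic circles of all kinds gave 10463, 29731 and 49366 detections in the same groups, so the counts did not rise as a share of them. The procollagen N-proteinase genes Adamts3, with 23, and Adamts2, with 21, were the 2 with enough circles to test. Neither passed in any contrast by edgeR with Benjamini-Hochberg adjustment, and neither had an unadjusted p under 0.05.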

How the data were processed

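The authors deposited counts of supporting reads (split reads plus discordant pairs) per library for 1 list of circles, not normalized per the file headers, and an annotation table with position, length, type and gene. Per the submitters' processing notes BWA, Picard and bedtools were used with build rn6, without versions; of the circle caller and the merging rule, nothing was given in the sources used here. Per the labels, libraries were made from 50 ng of circular DNA with a transposase kit. Starts were moved to count from 1.

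Members were rows of type exon or introns with a matching symbol in the gene cell; 6 cells held a further gene. The members and lists were chosen with earlier results of these data known. Group means were compared with two-sided exact permutation tests over 70 splits (Python 3.11.15, scipy 1.17.1), adjusted over 12 tests, and a second family of 12 was added after the data were seen; collagen and other circles of a library by exact sign flips. Circles per gene were tested with edgeR 4.0.16 (TMM, quasi-likelihood, at least 20 circles over 12 libraries, adjusted p 0.05) in R 4.3.3, and with DESeq2 1.42.0 as an alternative. The edgeR step was tested on simulated data, with a spread between libraries that was set in advance. Of 200 genes changed 4-fold among 934 (5 Gy x4 against control), 92 were called, with 8 false calls.

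Named were collagen genes past the threshold (none), the 10 with most circles, circles in at least 3 libraries, the 5 longest and 5 best supported, and the main dermal, type IV, type VI, hemidesmosome and anchoring fibril genes. Others are named within their class, and some of those after their values were seen. Circle sequences are not given because no genome of build rn6 was used here.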

Additional observations from a re-analysis of the deposited data

Results flagged for a closer look

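In 27 sets of 4 libraries (9 measures in each group), the highest or lowest library was compared with the others by its gap as a part of the group's range, which chance alone exceeds in about 1 in 20 sets. In 3 sets 1 library stood apart. In control, replicate 2 had an exonic collagen share of 3.70% where the other control libraries had 0%. It held the 1 exonic collagen circle of the group. With the other libraries all at 0, any exonic circle would have set it apart, so the rate of 1 in 20 does not apply to this set. Also in control, replicate 4 had 66.7% of its collagen circles shared with another library, and it held 6 collagen circles in all, the fewest of any library. In 5 Gy x2, replicate 4 held 10 collagen circles against 40 to 44 in the other 3 libraries; it also had the fewest genic circles of its group, 2355.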

How the results depend on the processing

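Alternatives were another read minimum, label, length limit, denominator, normalization or gene filter, and each library left out in turn. No adjusted p of a comparison between groups passed 0.05 under those run, but 4 libraries against 4 can hardly reach it, so this says nothing on stability. Most collagen values kept their direction, those that turned are given here, and the cause was not tested. In percentage points, the share of genic circles went to 0.000815 (5 Gy x2 against control, at least 2 reads), -0.107 (5 Gy x4 against control, hconf only) and -0.0174 (the same, under 1000 bp). With hconf circles only, 5 Gy x4 minus 5 Gy x2 was -0.976 for the exonic share and -2.09 for the 330 to under 420 bp share, and for collagen minus other genic circles -2.40 and -5.15. Leaving out 1 library at a time, the share of genic circles ran from -0.124 to 0.0183 (5 Gy x2 against control) and from -0.0533 to 0.0885 (5 Gy x4 against control). For 5 Gy x4 against 5 Gy x2 the ranges were -2.60 to 7.14 for the length class, -3.83 to 1.17 for the recurrent share, and, as collagen minus other, -3.01 to 4.71 for the length class and -2.23 to 4.83 for the recurrent share. The recurrent share as collagen minus other ran from -10.4 to 0.0670 for 5 Gy x4 against control. Within libraries the exonic difference ran from -2.18 to 0.0259, and reads per circle from -2.52, past the threshold without control replicate 4, to -1.41.

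For single genes, log2 values turned for Col19a1 in 5 Gy x4 against 5 Gy x2 (-0.068 with library size alone, -0.26 with at least 2 reads, -0.29 to 0.39 without 1 library). Against control in 5 Gy x2 they turned for Col24a1 (-0.034 with library size alone, -0.036 to 1.10 without 1 library), Col5a1 (-0.16, and -0.16 to 3.52) and Col25a1 (-0.47, -0.076 with DESeq2, and -0.27 to 0.54). Col25a1 in 5 Gy x4 against control was 0.18 with no filter. The number of all genes passing in 5 Gy x4 against control was 6, and 20 with library size alone, 0 with DESeq2 (634 adjusted p not given), 9 of the 15 genes that filterByExpr left (no collagen gene), 4 with no filter and 9 with at least 2 reads. In 5 Gy x2 it was 0, and 7, 0, 6, 0 and 11. No collagen gene passed in any. Without 1 library it ran from 3 to 12 in 5 Gy x4 and from 0 to 3 in 5 Gy x2.

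Whether the same replicate number pairs libraries was not settled. Of 12 such pairs 1 had a correlation of deviations over 0.1 (-0.0422 to 0.146), against -0.104 to 0.0878 in the 36 other pairs. Of 12 libraries, 7 correlated best with a library of their own number. With the replicate number as a block, 7 genes passed in 5 Gy x4 against control, none of them a collagen gene, and the log2 value of Col25a1 in 5 Gy x2 was -0.027; the exact p of the collagen number, 4.57-fold in 5 Gy x4, was 0.125, the smallest that 4 pairs allow.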

Other observations

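Circles within 2 kb of a collagen gene, which the counts above leave out, numbered 13, of which 8 lay upstream and 5 downstream. Each was found in 1 library: 2 in control, 1 after 5 Gy x2 and 10 after 5 Gy x4, where the libraries ranged from 0 to 6.

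Collagen circles that overlapped were merged into loci, which gave 400 loci from 423 circles. In 21 loci 44 circles overlapped one another, and 3 loci were found in 4 or more libraries. One of them is the Col4a1 intron, where 2 further circles, 83625923 to 83626055 in control replicate 4 and 83625933 to 83626142 in control replicate 1, overlap the one named above, so that the locus was found in all 4 control libraries and in 5 Gy x2 replicate 1.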
